A study of Mus musculus with 4 samples.

Results

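The Frizzled receptors were followed through the 4 single-cell RNA sequencing libraries of this study of mouse skin. The 9 genes Fzd1, Fzd2, Fzd3, Fzd4, Fzd5, Fzd6, Fzd7, Fzd8 and Fzd10 were taken by name, not by their values, from the 32285 genes of each matrix, and all 9 were found in all 4 libraries. The study deleted ΔNp63, the p63 isoform that basal keratinocytes use, in adult epidermis. Control mice were DNp63fl/fl, with the floxed allele and no Cre, and experimental mice were DNp63fl/fl;K14-CreT2, in which the keratin 14 promoter drives a tamoxifen-dependent Cre in basal keratinocytes. Both genotypes received tamoxifen, 200 mg/kg by gavage on each of 5 days, and skin was taken 1 day or 1 week after ablation, so the 4 groups were 1-day control, 1-day experimental, 1-week control and 1-week experimental. Ages ran from 2 to 17 months and both sexes were used, per the labels, which do not say how many animals went into a library. With a single library in each group, differences have no replicate check and were not tested, and every interval covers counting error only. A 3′ kit was used at 1 day and a 5′ kit at 1 week, so each experimental library was compared only with the control library taken at the same time.

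Frizzled proteins are membrane receptors that bind Wnt ligands through a cysteine-rich domain outside the cell. With the co-receptors Lrp5 and Lrp6 they recruit Dishevelled and keep β-catenin from being degraded, and with Celsr and Vangl proteins some of them orient cells within an epithelium. In skin, Wnt and β-catenin signalling is known for driving hair follicle formation and growth, and Fzd6 is known for setting the direction in which hairs grow. By sequence the 9 genes followed here fall into 4 subfamilies, which are Fzd1, Fzd2 and Fzd7, Fzd5 and Fzd8, Fzd4 and Fzd10, and Fzd3 and Fzd6. Fzd9 is not among them, so Frizzled sums and shares below are over these 9 genes only.

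Most of these genes are compact: Fzd1, Fzd2, Fzd7, Fzd8 and Fzd10 each had a single exon in the GENCODE M21 annotation of GRCm38. Fzd1 lay on the reverse strand at chr5:4753839-4758035, Fzd2 on the forward strand at chr11:102604396-102608058 and Fzd7 on the forward strand at chr1:59482424-59486955. The intervals of Fzd3 and Fzd6, at chr14:65192449-65262463 and chr15:39006034-39038188, each overlapped other annotated genes, and so did that of Fzd5 at chr1:64730558-64737751. Fzd4 was at chr7:89404355-89413134 and Fzd10 at chr5:128600844-128604093. Of the 9 members 5 were in the promoter table, and in 3 of them, Fzd4, Fzd5 and Fzd10, the upstream window reaches into the annotated gene. The windows of the other 2, Fzd1 and Fzd7, are shown to set side by side 2 genes of one subfamily whose levels over classes differed. Each run is the 250 bases before the RefSeq start on GRCm38.p6, 5′ to 3′ on the gene's strand, with the letters CTTTG or their reverse complement CAAAG in capitals. CTTTG is the core of the motif that the TCF and LEF factors, the DNA-binding partners of β-catenin, recognise.
Fzd1, chr5:4758217-4758466, reverse strand: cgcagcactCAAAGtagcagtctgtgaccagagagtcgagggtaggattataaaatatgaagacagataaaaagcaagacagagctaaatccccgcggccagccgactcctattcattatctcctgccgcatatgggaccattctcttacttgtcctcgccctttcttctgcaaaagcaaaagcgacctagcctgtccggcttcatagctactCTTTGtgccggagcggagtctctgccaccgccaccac
Fzd7, chr1:59481897-59482146, forward strand: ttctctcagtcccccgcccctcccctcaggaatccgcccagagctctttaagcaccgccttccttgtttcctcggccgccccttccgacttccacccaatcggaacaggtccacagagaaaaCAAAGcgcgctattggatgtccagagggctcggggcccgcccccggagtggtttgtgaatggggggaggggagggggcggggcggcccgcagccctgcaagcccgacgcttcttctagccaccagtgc
The Fzd1 window held 2 such matches and the Fzd7 window 1, while 48.8% of 27025 windows of the same length held at least 1. For GGGCGG or CCGCCC, the GC box, the Fzd7 window had 6 matches and the Fzd1 window none, against 32.9% of all windows with at least 1. GC content was 65.2% upstream of Fzd7 and 51.2% upstream of Fzd1, with a median of 52.0% over all windows. A match describes letters in a window and is not a site.

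Cells were grouped by clustering in which neither the Frizzled genes nor the other Wnt genes described below were used, and clusters were named from marker genes (for example Cd34, Postn and Lhx2 for the hair follicle bulge, where follicle stem cells lie). A name ends in "-like" for that reason, and a cluster with no name is called by its leading gene. After filtering, 22298 and 23651 cells remained at 1 day and 19879 and 15626 at 1 week, control and experimental in that order, with 58132504 to 111444609 gene UMIs (single captured RNA molecules) per library in these cells and 68191870 to 179736563 over all deposited barcodes. At 1 week, 11514 and 11294 of them were shallow barcodes close to the profile of the lowest-UMI 10% of barcodes, taken as free RNA, and entered no class. At 1 day such barcodes were not set aside and could enter a class. Trp63, the gene that encodes p63, was at 404 and 123 UMIs per 1000000 UMIs of the class (CPM) in the keratinocytes of the 1-day control and experimental libraries and at 451 and 159 CPM at 1 week, and these counts do not tell its isoforms apart. Xist was at 0.0359 and 0.0510 CPM in the 1-day libraries, against 284 and 138 CPM at 1 week, which goes against a label of equal sexes for the 1-day pair. The 2 libraries of the 1-day pair shared 299 cell barcodes and those of the 1-week pair 661. Keratin 8 (Krt8), at 0.884 and 1.14 CPM in control keratinocytes, was at 287 and 213 CPM in experimental ones, and clusters led by it were kept out of the keratinocyte total. Also kept out were clusters called free-RNA-rich, in which markers of other lineages reached 40% of their level in the lowest-UMI barcodes. They held 120 control and 2239 experimental cells at 1 day and 1450 and 335 at 1 week.

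In both control libraries the bulge-like cells carried more Frizzled RNA than any other keratinocyte class that was named, and the interfollicular epidermis carried little beyond Fzd6, Fzd5 and, at 1 week, Fzd10. The 9 genes summed to 369 CPM in bulge-like cells of the 1-day control library, 122 CPM in sebaceous-like, 96.9 CPM in upper hair follicle-like, 48.5 CPM in basal-like and 35.7 CPM in suprabasal-like cells. In the 1-week control library the same classes summed to 667, 169, 139, 63.9 and 50.4 CPM, in the same order. A small Pinlyp-led cluster of 108 control cells at 1 day, which no marker list named, reached 474 CPM. UMI counts of tagged transcript ends do not scale with transcript length, so levels of different genes are set side by side here as UMIs counted. How well each gene is captured can differ between genes and kits and was not measured. Shares and ranks of genes below are thus of counted UMIs.

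**Figure D1:**
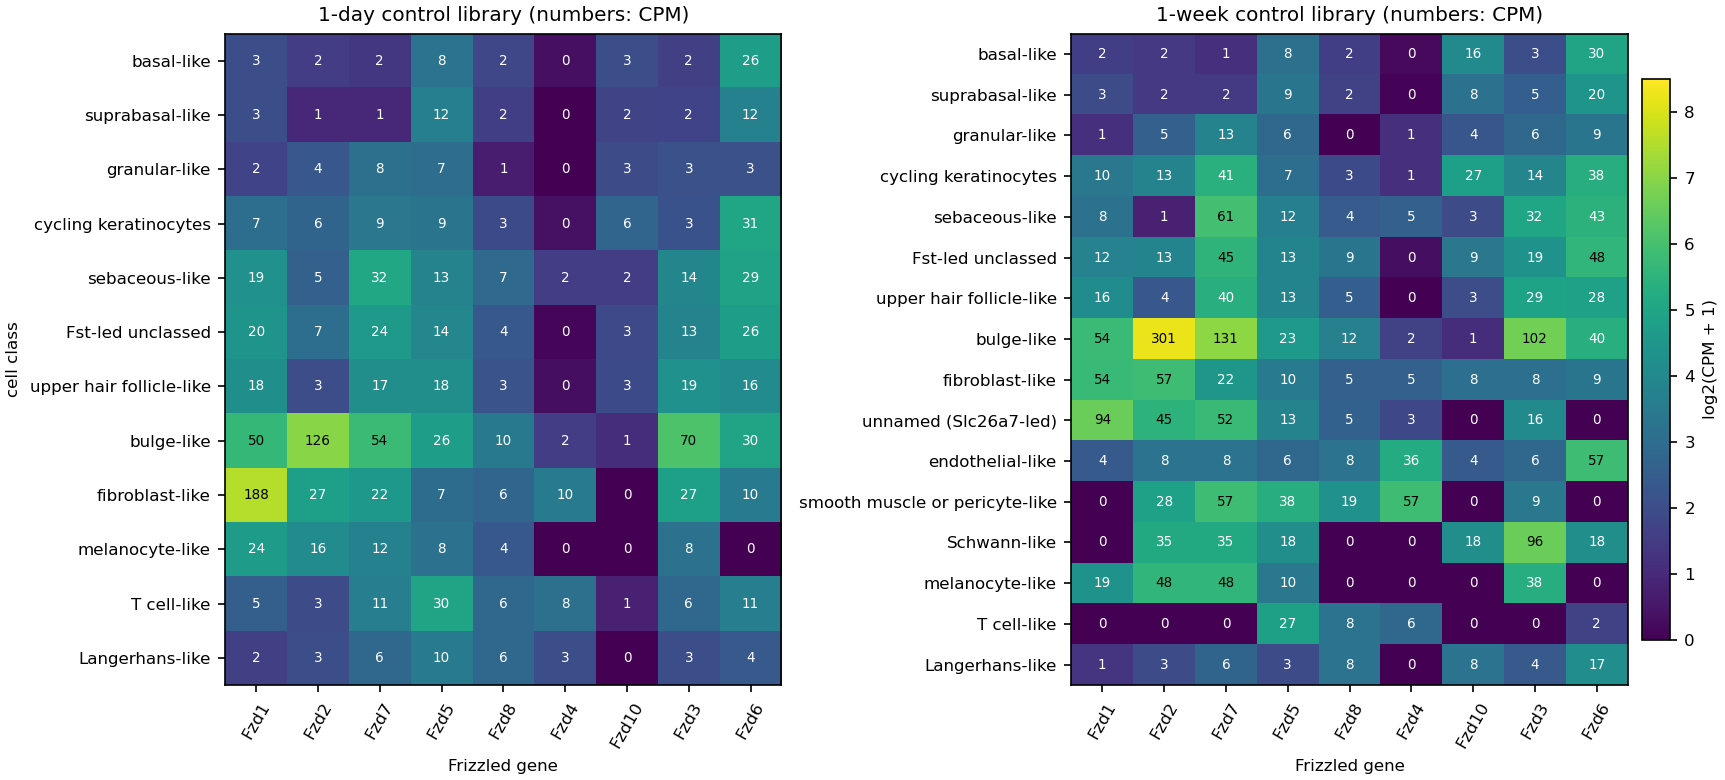
Level of each Frizzled gene (columns, ordered by subfamily) in each cell class (rows) of the 1-day and 1-week control libraries, with CPM rounded to whole numbers in the cells and log2(CPM + 1) as colour. The bulge-like row stands out in both panels, with Fzd2 at 126 and 301 CPM, while the basal-like row is led by Fzd6 at 25.6 and 30.4 CPM.

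Fzd2 was the largest part of the bulge signal, with 34.2% of Frizzled UMIs in the 1-day and 45.1% in the 1-week control library, and Fzd3 and Fzd7 came next with 18.8% and 14.7%, then 15.3% and 19.7%. Fzd2, which acts with Fzd1 in palate closure, was at 126 CPM in 1-day control bulge-like cells and at 3.0 CPM in upper hair follicle-like, 1.90 CPM in basal-like and 0.939 CPM in suprabasal-like cells of that library. In the 1-week control library it was at 301 CPM in bulge-like cells and at 1.64 to 3.94 CPM in the same 3 other classes. Among these 4 keratinocyte classes Fzd2 was thus high in the bulge alone, and its only other level above 50 CPM in a named control class was 57.3 CPM in 1-week fibroblast-like cells. An Fzd2 UMI was found in 25.5% of 3951 bulge-like cells of the 1-day control library (exact 95% interval 24.1 to 26.9%, median 2322 UMIs a cell), against 0.789% of 380 Langerhans-like cells (median 2414 UMIs). Fzd7, a receptor of intestinal stem cells, was at 54.3 and 131 CPM in the bulge-like cells of the 2 control libraries, but it also reached 32.3 and 61.1 CPM in sebaceous-like and 17.2 and 40.3 CPM in upper hair follicle-like cells. In basal-like cells it stood at 1.57 and 1.26 CPM. Fzd1 was at 49.9 and 54.2 CPM in bulge-like cells, at 17.7 and 16.4 CPM in upper hair follicle-like cells and at 3.1 and 1.97 CPM in basal-like cells. Unlike the other 2 genes of its subfamily, Fzd1 was higher in a dermal class than in the bulge at 1 day, with 188 CPM in fibroblast-like cells, and at 1 week it was at 94.4 CPM in a Slc26a7-led cluster that no marker list named.

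Fzd3 and Fzd6, the subfamily of cell polarity and axon guidance, differed in how steeply they were graded over the epidermis. Fzd3 was at 69.5 CPM in 1-day and 102 CPM in 1-week control bulge-like cells and at 2.04 and 3.08 CPM in basal-like cells. Fzd6 was at 30.5 and 39.6 CPM in bulge-like cells and at 25.6 and 30.4 CPM in basal-like cells, where it supplied 52.7% and 47.5% of the UMIs of the 9 genes. Fzd6 was thus the leading gene of the 9 in the basal layer in both control libraries. From basal-like to suprabasal-like cells it was lower, at 12.2 CPM at 1 day and 20.2 CPM at 1 week. Its highest level in the 1-day control library was 176 CPM in the Pinlyp-led cluster.

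Fzd5, a receptor that Paneth cells of the gut require, was counted at a low level in each keratinocyte class below and stepped up from the basal layer to the bulge. In the 1-day control library it was at 8.42 CPM in basal-like, 11.8 CPM in suprabasal-like, 17.5 CPM in upper hair follicle-like and 25.6 CPM in bulge-like cells, and in the 1-week control library at 7.73, 8.77, 13.3 and 23.2 CPM in the same order. Fzd8, its close relative, stayed below these values, at 9.89 and 12 CPM in bulge-like and 2.50 and 1.97 CPM in basal-like cells. Fzd10 had the reverse order, with 1.18 and 1.16 CPM in bulge-like cells and 3.1 and 15.7 CPM in basal-like cells. The 2 basal values of Fzd10 come from different kits and are not compared. Within the 1-week control library its highest level was 44.0 CPM in an Fbxo32-led keratinocyte cluster. Fzd4, the Norrin receptor of blood vessels, was at or below 2.09 CPM in the basal-, suprabasal-, upper follicle- and bulge-like cells of both control libraries.

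Free RNA can give part of the low values in the interfollicular classes, so the level in the lowest-UMI 10% of barcodes is set beside them as a stand-in. In the 1-day control library those barcodes reached 1586 UMIs and can also hold small cells. Its fibroblast-like cells, for example, had a median of 1131 UMIs and Fzd1 at 188 CPM. Markers of other lineages were at 4924 CPM in those barcodes and 1314 CPM over all cells, so the level is not that of free RNA alone. The lowest-UMI 10% of barcodes of the 1-day control library held Fzd1 at 55.5, Fzd2 at 46.3, Fzd7 at 40.7 and Fzd6 at 20.7 CPM. Markers of 6 other lineages, which basal-like cells should lack, stood there at 3.62% of their level in those barcodes, and in bulge-like cells at 8.46%. Fzd6 in basal-like cells and Fzd2, Fzd3 and Fzd7 in bulge-like cells were above the level of the same gene in those barcodes. Fzd1 in bulge-like cells, at 49.9 CPM, was below its 55.5 CPM there. In the 1-week control library Fzd1 was at 54.2 CPM in bulge-like cells, above the 15.5 CPM of the lowest-UMI barcodes. In 1-day control basal-like cells Fzd1, Fzd2 and Fzd7 were far below their level in the 1-day barcodes. Fzd8 there was at 2.50 CPM, beside 8.85 CPM in those barcodes, and Fzd10 at 3.1 CPM was above its 2.66 CPM. Fzd5 was at 22.1 CPM in those barcodes, above its 8.42, 11.8 and 17.5 CPM in basal-like, suprabasal-like and upper hair follicle-like cells. Its level in bulge-like cells, 25.6 CPM, was higher than in those barcodes. Because markers that basal-like cells should lack also lay below the barcode level, lying below it does not tell free RNA from RNA of the cells. The part of free RNA in these values was not tested.

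Outside the epithelium the leading member differed between classes. In 1-week control endothelial-like cells Fzd6 led at 57.3 CPM and Fzd4 was second at 36.1 CPM, and in smooth muscle or pericyte-like cells Fzd4 and Fzd7 were both at 56.8 CPM. Within the endothelial class Fzd4 was at 55.0 CPM in a Selp-led cluster and 10.1 CPM (2 UMIs) in a Ccl21a-led cluster. Fzd6 was at 75.7 CPM in that Ccl21a-led cluster, Ccl21a being a chemokine of lymphatic vessels. Fzd3 led in Schwann-like cells at 96.4 CPM, from 11 UMIs in 44 cells. Fzd5 led in T cell-like cells at 30.4 CPM at 1 day and 27.3 CPM at 1 week. These stromal and immune values rest on few UMIs each. The summed level of the 9 genes in Langerhans-like cells was 38.2 CPM at 1 day and 50.8 CPM at 1 week, below that of every hair follicle class.

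Across the class-by-library sums, 34 at 1 day and 29 at 1 week, the genes whose log2 levels followed a member most closely were described by the mean of its 2 Pearson correlations over 10960 genes. The sums share libraries, depth and cell classes, and genes are not independent replicates, so no test is given. Closest to Fzd2 were Ltbp2 (0.90), Lgr5 (0.88) and Dkk3 (0.88). Lgr4, a receptor for R-spondins like Lgr5, was closest to Fzd3 (0.88), before Efna4 (0.86) and Dmd (0.86). For Fzd7 it came second (0.86), between Ltbp3 (0.87) and Enpp1 (0.85). Dclk1 (0.91), Sdc2 (0.90) and Meis1 (0.89) were closest to Fzd1, and Plch2 (0.82), Efnb1 (0.82) and Fxyd3 (0.81) to Fzd6. For Fzd5 the closest were Stk26 (0.74), 9330151L19Rik (0.74) and Ormdl3 (0.71), for Fzd8 Hexim1 (0.76), Cyren (0.75) and Tmem64 (0.74), and for Fzd10 Pou3f1 (0.73), Fzd10os (0.66) and Sh3rf2 (0.63). Among the members themselves, Fzd3 and Fzd7 had correlations of 0.86 at 1 day and 0.88 at 1 week, and Fzd1 and Fzd2 of 0.75 and 0.80.

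One day after ablation the experimental keratinocytes as a whole carried less Fzd6 and Fzd2 and slightly more Fzd5 and Fzd7 than control keratinocytes, and no member differed by 2-fold. Fzd6 was at 21.6 CPM in 20403 control and 14.3 CPM in 16271 experimental keratinocytes, a log2 ratio of experimental over control of -0.60 (95% counting interval -0.71 to -0.49). Fzd2 was at 15.8 and 11.6 CPM, a log2 ratio of -0.45 (-0.57 to -0.33). Both were lower in the experimental library by more than counting error. Fzd5 was at 13.4 and 15.9 CPM (0.25, 0.13 to 0.36), and Fzd7 at 13.6 and 16.3 CPM (0.26, 0.15 to 0.37). Fzd1, at 12.1 and 11 CPM, and Fzd3, at 12.7 and 13.8 CPM, had ratios of -0.14 and 0.12. For Fzd4 (0.363 and 0.473 CPM), Fzd8 (3.65 and 3.32 CPM) and Fzd10 (2.94 and 2.81 CPM) the interval of the log2 ratio included 0. Of the 9 members 0 reached a 2-fold difference in either direction, against 7.73% of the 13300 genes with at least 50 UMIs, and the median log2 ratio was -0.06 over the members and -0.01 over all those genes.

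These totals mix classes whose sizes differ between the libraries. Basal-like and suprabasal-like cells numbered 4724 and 4890 in the 1-day control library but 466 and 941 in the experimental one, while an Slpi-led cluster held 8 control and 4854 experimental cells. Restricted to classes with at least 25 cells in both libraries, the Fzd6 ratio was -0.22, the Fzd7 ratio 0.83 and the Fzd2 ratio 0.15. The summed level was 96.2 and 89.5 CPM over all keratinocytes (-0.10) and 96.2 and 119 CPM over the shared classes (0.31), so its direction depended on which cells were counted. Without the bulge-like cells the Fzd2 ratio was 0.26, the opposite direction. The shared classes still differed in size. Basal-like cells held 21603110 control and 1559138 experimental UMIs, and suprabasal-like cells 38334062 and 4696863. The Fzd7 ratio of 0.83 was above that of each shared class with at least 50 Fzd7 UMIs, of which cycling keratinocytes had the highest (0.77). Basal-like and suprabasal-like cells, with fewer, had 1.51 and 0.95. The part of class sizes in the shared-class ratios was not tested.

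At 1 week the whole keratinocyte population of the experimental library carried more Fzd7, Fzd1 and Fzd3. Fzd7 was at 25.3 CPM in 5967 control and 53.4 CPM in 2882 experimental keratinocytes, a log2 ratio of 1.08 (0.97 to 1.19). Fzd1 was at 9.88 and 18.0 CPM (0.86, 0.68 to 1.05), Fzd3 at 18.2 and 31.4 CPM (0.79, 0.65 to 0.92) and Fzd2 at 31.9 and 41.6 CPM (0.39, 0.28 to 0.50). Among the named keratinocyte classes, all 4 genes were highest in bulge-like cells in both control libraries. Fzd10, which was higher in basal-like than in bulge-like control cells, was lower, at 11.6 and 9.11 CPM (-0.35, -0.56 to -0.14), and Fzd6 was at 30.2 and 28.2 CPM with an interval that included 0 (-0.10, -0.22 to 0.03). Fzd5 was at 10.7 and 12.8 CPM (0.26, 0.07 to 0.46), while for Fzd4 and Fzd8 the interval included 0. One member of 9, Fzd7, was at least 2-fold higher, against 10.6% of 12823 genes, and 0 were 2-fold lower, against 4.76%. The median log2 ratio was 0.39 over the members and 0.12 over all genes tested, and with TMM scaling the Fzd7 ratio was 0.96, which ends the 2-fold call.

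The makeup of the keratinocytes moved with these values. Basal-like and suprabasal-like cells, in which control levels of Fzd1, Fzd2, Fzd3 and Fzd7 were each below 5 CPM, numbered 1694 and 1118 in the 1-week control library and 10 and 7 in the experimental one, while bulge-like cells numbered 897 and 855. Over classes with at least 25 cells in both libraries, Fzd7 was at 65.1 and 65.8 CPM (0.02), Fzd1 at 22.3 and 22.0 CPM (-0.02), Fzd3 at 41.5 and 38.8 CPM (-0.10) and Fzd2 at 82.6 and 52.3 CPM (-0.66). Fzd10 turned direction there, at 8.54 and 10.5 CPM (0.29). The higher totals of Fzd1, Fzd3 and Fzd7 were thus not seen in the pooled level of the shared classes. Fzd7 was still higher within upper hair follicle-like and Fst-led cells (0.71 in both). It was at 0.03 in bulge-like, 0.12 in sebaceous-like and -0.14 in cycling cells. The pooled Fzd2 ratio of -0.66 was below that of each shared class with at least 50 Fzd2 UMIs, of which bulge-like cells had the lowest (-0.49). The shared classes still differed in size, for example cycling keratinocytes with 3233093 control and 6687186 experimental UMIs. The part of that in the shared-class ratios was not tested. With 10 experimental basal-like cells and 1 Frizzled UMI among them, the basal layer could not be compared at 1 week.

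**Figure D2:**
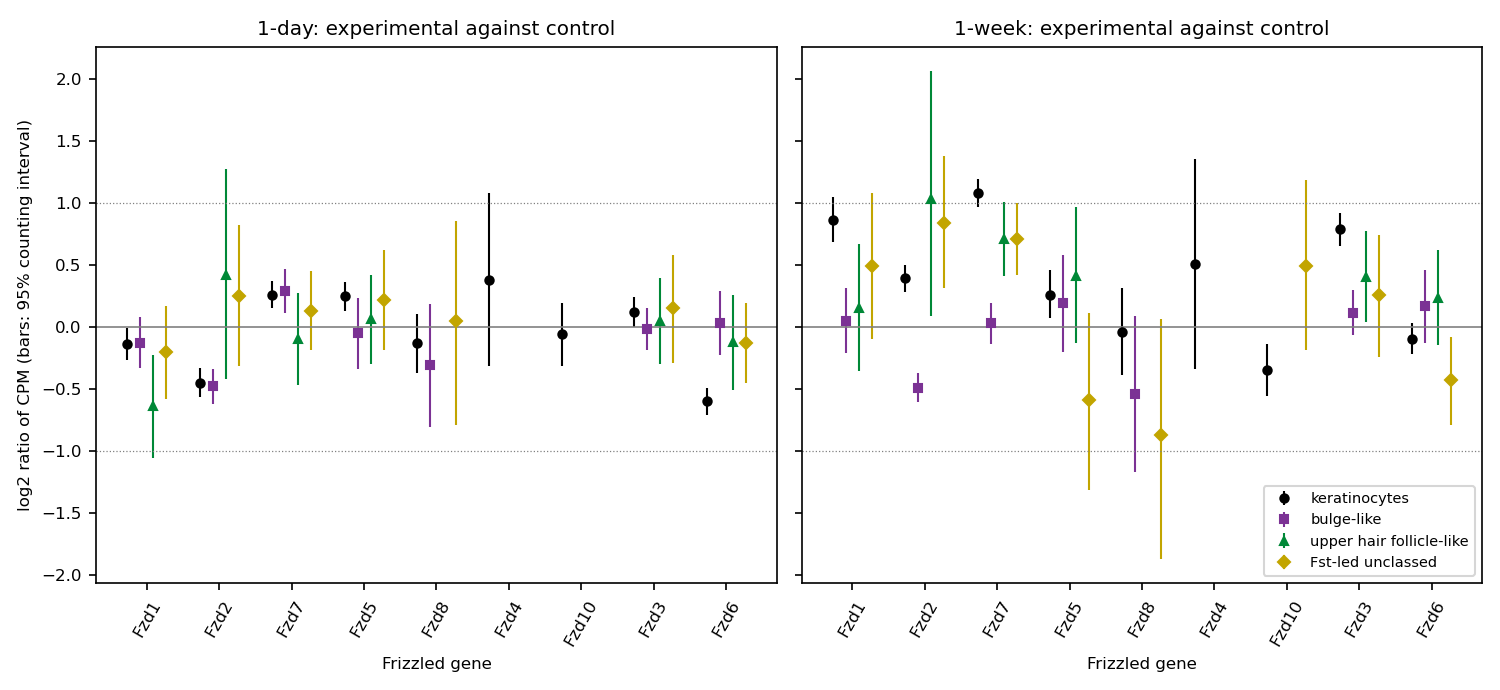
Log2 ratio of experimental over control CPM for each Frizzled gene with at least 50 UMIs, in all keratinocytes and in 3 classes, at 1 day and 1 week, with bars for the 95% counting interval and dotted lines at 2-fold. Fzd2 in bulge-like cells lies at -0.48 and -0.49, while Fzd7 in all keratinocytes lies at 0.26 and 1.08, in panels that come from different kits.

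Within the bulge-like cells Fzd2 was lower in the experimental library at both time points, and it was the member with a ratio beyond counting error in both. At 1 day it was at 126 CPM in 3951 control cells and 90.5 CPM in 2298 experimental cells, a log2 ratio of -0.48 (-0.62 to -0.34). The 1-week levels were 301 CPM in 897 and 214 CPM in 855 cells, a ratio of -0.49 (-0.61 to -0.37). Each pair has its own control library, so the 2 ratios share no sample, and at neither time did Fzd2 reach 2-fold. Fzd7 was at 54.3 and 66.2 CPM at 1 day (0.29, 0.11 to 0.47) and at 131 and 134 CPM at 1 week (0.03, -0.14 to 0.19). For Fzd1, Fzd3, Fzd5, Fzd6 and Fzd8 the interval included 0 at both times, with 1-day ratios from -0.31 to 0.03 and 1-week ratios from -0.54 to 0.19. Fzd4 and Fzd10 had under 50 UMIs. Of 7 members with enough UMIs 0 reached 2-fold at either time, against 2.32% of genes in either direction at 1 day and 5.89% at 1 week, and their median was -0.05 and 0.05, against 0.02 and 0.02 over all genes tested. Trp63 in the bulge-like cells was at 396 and 287 CPM in the 1-day pair and at 547 and 345 CPM in the 1-week pair. The 11 bulge markers were all at 10 CPM or more in each library, and their sum was also lower in the experimental one, at 12698 and 10209 CPM for the 1-day pair and 17248 and 15610 CPM for the later pair. Their part in the Fzd2 ratio was not tested.

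The Fzd2 difference was widest in the Ccn2- and Krt24-led bulge-like clusters at 1 day and in the Krt24-led one at 1 week. Control Fzd2 was highest in these clusters, but the control level is also the denominator of the ratio, so the order is not independent of it. At 1 day Fzd2 was at 238 and 157 CPM in the Ccn2-led cluster (-0.60, -0.80 to -0.41) and at 119 and 68.6 CPM in the Krt24-led cluster (-0.79, -1.05 to -0.54), both of which also had Cd34 among their leading genes. In a Ramp1-led cluster it was at 58.9 and 51.7 CPM (-0.19, -0.68 to 0.29) and in an Aspn-led cluster at 66.8 and 47.9 CPM (-0.48, -0.96 to -0.01). At 1 week it was at 468 and 297 CPM in the Krt24-led cluster (-0.65, -0.80 to -0.51), which was again led by Cd34 among others. The Slc7a2-, Pthlh- and Fgf18-led clusters of the 1-week pair had 153 and 169, 143 and 117, and 136 and 111 CPM, with intervals that included 0. Fzd7 had no common direction over clusters: it was at 74.9 and 112 CPM in the 1-day Ccn2-led cluster (0.58, 0.30 to 0.86), at 73.2 and 47.9 CPM in the Aspn-led cluster (-0.61, -1.09 to -0.15) and at 213 and 129 CPM in the 1-week Fgf18-led cluster (-0.72, -1.29 to -0.18). Differences between clusters were not tested.

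**Figure D3:**
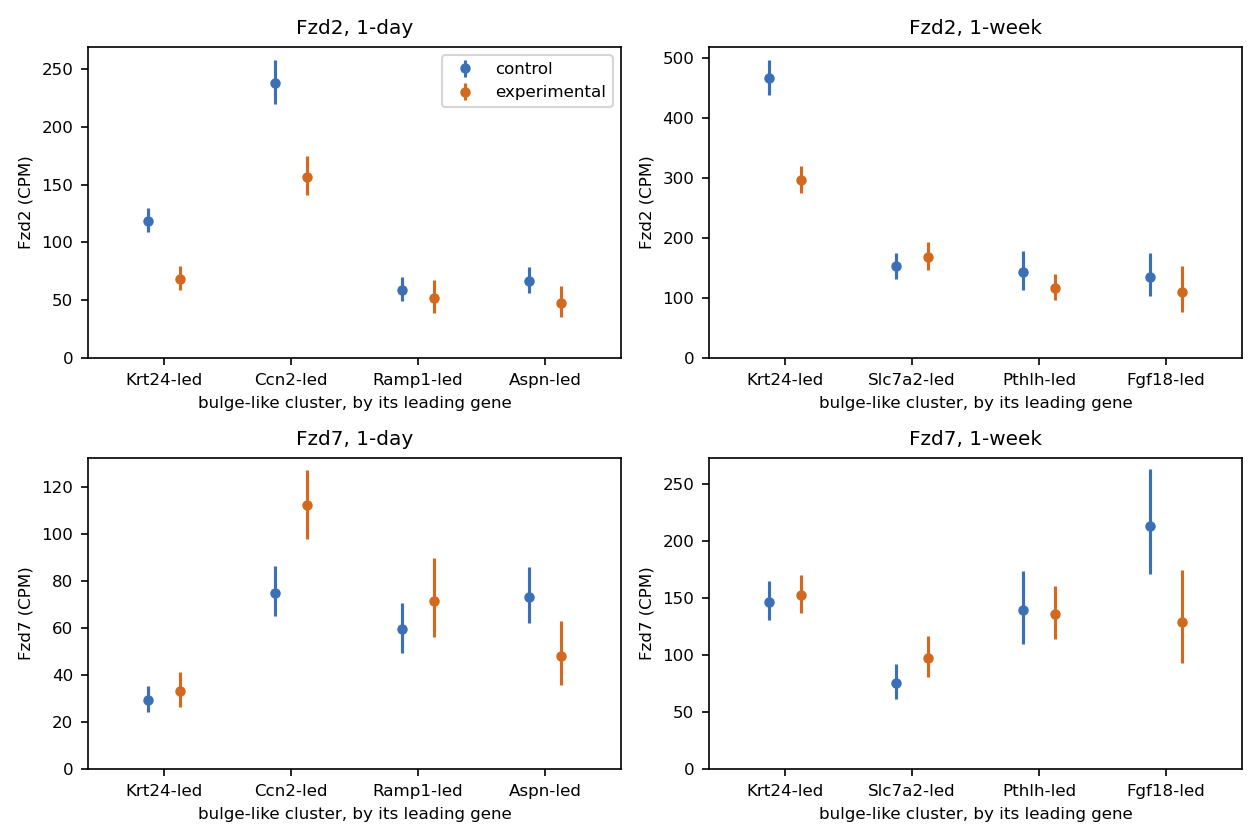
CPM of Fzd2 (top) and Fzd7 (bottom) in each bulge-like cluster of the control and experimental libraries at 1 day (left) and 1 week (right), with bars for the 95% counting interval and axes that start at 0. Fzd2 is lower in the experimental library in both Krt24-led clusters (119 and 68.6 CPM, 468 and 297 CPM), while Fzd7 is higher in some clusters and lower in others.

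The share of bulge-like cells with an Fzd2 UMI was 25.5% in the control and 19.6% in the experimental library at 1 day and 57.4% and 55.0% at 1 week. Median depth was 2322 and 2250 UMIs in the 1-day pair and 3629 and 4247 in the 1-week pair. Thinned to 1000 UMIs a cell, which left out 177 control cells at 1 day, 36 at 1 week and 0 experimental cells, 12% and 8.83% of cells had one at 1 day, then 25.7% and 20.7% at 1 week. At equal depth Fzd2 was thus found in a smaller share of experimental cells at both times. Markers of other lineages in these cells were at 416 and 480 CPM in the 1-day pair, 8.46% and 10.5% of their level in the lowest-UMI barcodes. In the 1-week pair they were at 381 and 428 CPM (12.1% and 20.3%). With 10% free RNA subtracted, by the profile of those barcodes, the Fzd2 ratios were -0.47 and -0.49. At 1 week the mean over cells of each cell's CPM gave an Fzd2 ratio of -0.33, smaller than the -0.49 of the summed UMIs. Cells with UMIs of 2 or more Frizzled genes made up 20.2% and 19.1% of bulge-like cells at 1 day and 55.7% and 60.2% at 1 week.

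Upper hair follicle-like cells, the class around the follicle opening, had a different pattern. At 1 day Fzd1 was at 17.7 CPM in 1884 control and 11.3 CPM in 1827 experimental cells (-0.64, -1.06 to -0.23), and for the other members the interval included 0. In the Cst6-led cluster of that class Fzd1 was at 36.2 and 23.6 CPM, and in the other cluster at 9.12 and 6.88 CPM. None of 6 members with enough UMIs reached 2-fold, against 2.76% of genes in either direction. At 1 week all 6 had ratios above 0, with Fzd7 at 40.3 and 65.7 CPM (0.71, 0.41 to 1.01), Fzd3 at 29.4 and 38.9 CPM (0.40, 0.04 to 0.77) and Fzd2 at 3.94 and 8.03 CPM (1.03, 0.09 to 2.06). Fzd2 was the 1 member of 6 at or above 2-fold, against 4.74% of genes that were 2-fold higher, and its 13 and 38 UMIs left a wide interval. It fell under 2-fold with TMM factors (0.94), as a mean over cells (0.90) and with doublets kept (0.76). The median was 0.41 over these members and 0.10 over all genes tested. The Fzd7 ratio was 0.40 with doublets kept and 1.0 with finer clusters, and median depth was 6293 and 8334 UMIs a cell. The finer clusters of this class were uneven between libraries. A Cst6-led one held 141 control and 309 experimental cells and a 2310046K23Rik-led one 184 and 139, and the part of that in the ratios was not tested.

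A cluster led by Fst, which no marker list named and whose control Trp63 levels of 579 CPM at 1 day and 566 CPM at 1 week stood beside 601 and 680 CPM in basal-like cells, had no member beyond counting error at 1 day. At 1 week it had Fzd7 at 45.2 and 74.0 CPM (0.71), Fzd2 at 13.4 and 24.1 CPM (0.84) and Fzd6 at 47.6 and 35.4 CPM (-0.43), each with an interval that excluded 0. Of 8 members 0 reached 2-fold, against 3.84% of genes in either direction. Markers of other lineages there stood at 8.55% of their level in the lowest-UMI barcodes in the control and 26.6% in the experimental library. Their part in these ratios was not tested. At 1 day the cluster had Fzd7 at 23.5 and 25.8 CPM, Fzd2 at 7.37 and 8.78 CPM and Fzd6 at 26.1 and 24.0 CPM.

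Fzd6 was lower in several of the keratinocyte classes outside the bulge at 1 day. It was at 30.6 and 19.7 CPM in cycling keratinocytes (-0.64, -1.0 to -0.29), but finer clustering put the cycling cells of the 2 libraries mostly in different clusters, one with 638 control and 60 experimental cells, one with 26 and 484 and one with 241 and 477, and Krt8 there was at 1.85 and 972 CPM. The part of that split in the ratio was not tested. Fzd6 was at 28.7 and 19.1 CPM in sebaceous-like cells (-0.59, -1.11 to -0.09) and at 176 and 109 CPM in the Pinlyp-led cluster (-0.69, -1.23 to -0.17). The sebaceous-like class joins a Plin2-led cluster (481 control and 291 experimental cells, Fzd6 at 27.9 and 22.8 CPM) and a Fa2h-led one (125 and 274 cells, 31.2 and 14.5 CPM). In basal-like cells it was at 25.6 and 18.0 CPM, from 552 and 28 UMIs, and the interval just included 0 (-0.51, -1.11 to 0.04). Suprabasal-like cells had 12.2 and 9.16 CPM (-0.42, -0.90 to 0.03). In bulge-like cells it was at 30.5 and 31.2 CPM (0.03, -0.23 to 0.29), and in upper hair follicle-like cells at 16.3 and 15 CPM (-0.12, -0.51 to 0.26). The Sostdc1-led cluster had a ratio of -0.65 (-1.19 to -0.14) and the Cstdc5-led cluster one of -0.67 (-1.49 to 0.17). In the Fst-led cluster the ratio was -0.13 and in a Ccl2-led cluster 0.12, with intervals that included 0. Granular-like cells, with under 50 UMIs, went the other way, at 3.36 and 5.62 CPM (0.74, -0.50 to 2.27). The difference between these classes was not tested.

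In the other keratinocyte classes with at least 25 cells in both libraries a few members passed 2-fold. The Sostdc1-led cluster at 1 day, which no marker list named, had Fzd1 at 12.4 CPM in 748 control and 25.7 CPM in 504 experimental cells (1.05, 0.40 to 1.71), the 1 member of 6 that was 2-fold higher, against 1.37% of genes. In cycling keratinocytes Fzd3 was at 3.39 and 10.5 CPM at 1 day, from 22 and 55 UMIs (1.63, 0.89 to 2.42), the 1 member of 7 that was 2-fold higher, against 3.40% of genes, in the class whose cells lay in different finer clusters in the 2 libraries. At 1 week Fzd10 was at 26.6 and 13.2 CPM in the same class (-1.02, -1.46 to -0.57), the 1 member of 7 that was 2-fold lower, against 4.51% of genes. That class joins a Cenpf-led cluster of 162 control and 11 experimental cells, with control Fzd10 at 35.8 CPM, and a Ube2c-led one of 107 and 322 cells, where Fzd10 was at 14.8 and 12.8 CPM. In basal-like cells at 1 day, 2 of 6 members, Fzd1 (3.1 and 7.06 CPM, 11 experimental UMIs) and Fzd3 (2.04 and 4.49 CPM, 7 experimental UMIs), were 2-fold higher, against 2.88% of genes, and Fzd10 (3.1 and 1.28 CPM, 2 experimental UMIs) was 2-fold lower, against 4.24%. The interval excluded 0 for Fzd1 (1.19, 0.12 to 2.12) but included it for Fzd3 (1.14, -0.26 to 2.30) and Fzd10 (-1.27, -4.35 to 0.64). In granular-like cells at 1 week Fzd10 was at 3.83 CPM from 3 UMIs in the control and 36.1 CPM in the experimental library (3.24, 1.65 at the lower bound), against 4.73% of genes that were 2-fold higher there, and median depth in that class was 712 and 15109 UMIs a cell. Most control cells, 129 of 172, lay in an Lce1l-led cluster (median 680 UMIs a cell) with no Fzd10 UMI, which allows a level of up to 38.1 CPM, and most experimental cells, 166 of 171, in a Lor-led cluster. The control median of 712 UMIs lay below the 1059 UMIs at which experimental barcodes of the 1-week pair began. Within the Lor-led cluster Fzd10 was at 4.37 CPM in 43 control cells and 36.2 CPM in the 166 experimental ones.

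Several clusters held almost only experimental cells, and at 1 day Fzd5 led their Frizzled makeup. In the Slpi-led cluster the 9 genes summed to 36.6 CPM, with Fzd5 supplying 42.4% of Frizzled UMIs and Fzd6 19.0%. In the Krt8-led cluster of 3924 experimental and 5 control cells they summed to 39.7 CPM, with 39.9% from Fzd5 and 26.6% from Fzd6. In control basal-like cells of that time Fzd6 supplied 52.7% and Fzd5 17.4%, and in control suprabasal-like cells 34.3% and 33.1%. Fzd5 also led in experimental suprabasal-like (35.1%), Cstdc5-led (26.3%) and granular-like cells of that time, so its lead was not limited to those clusters. These 2 sums were close to the 35.7 CPM of control suprabasal-like cells. A Nupr1-led cluster of 463 experimental cells summed to 71.0 CPM, above both control classes, with Fzd5 first and Fzd10 second. At 1 week the Krt8-led cluster of 429 experimental cells summed to 42.1 CPM and a Prl2c3-led cluster of 279 cells to 48.1 CPM, with Fzd6 first in both.

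**Figure D4:**
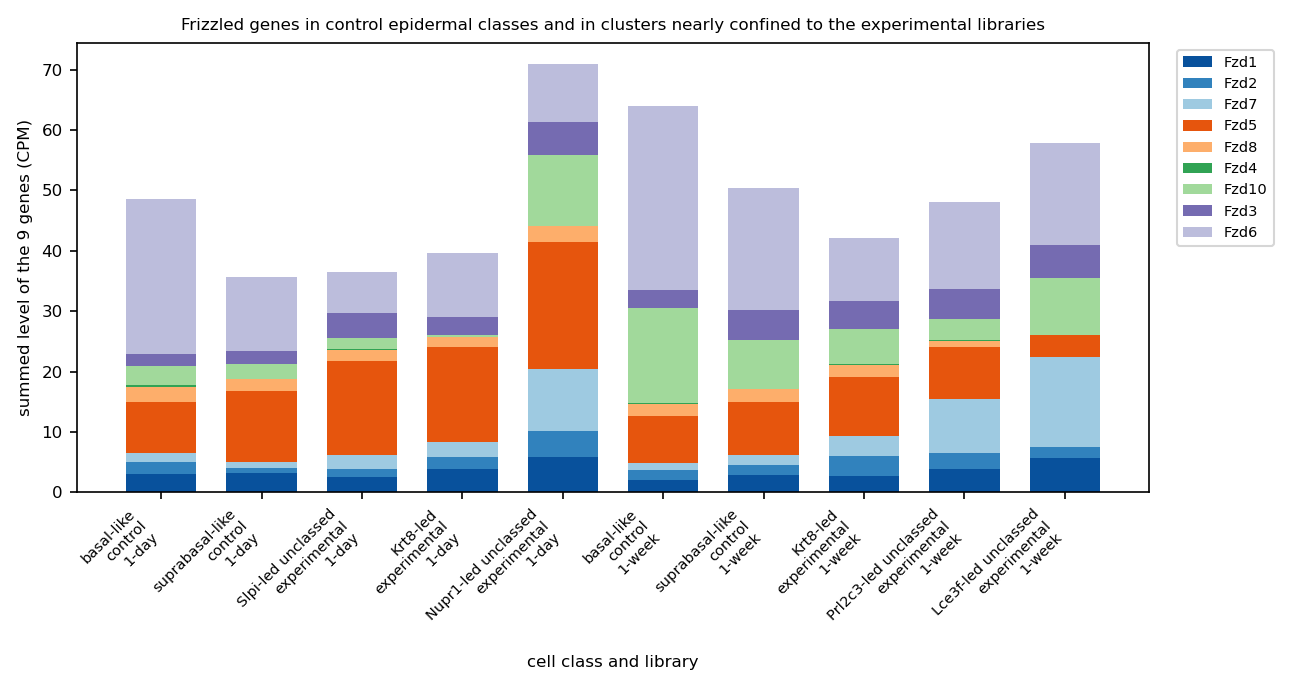
Summed CPM of the 9 Frizzled genes, split by gene, in control basal-like and suprabasal-like cells and in clusters held almost only by the experimental libraries, at 1 day and 1 week. At 1 day the Slpi- and Krt8-led clusters sum to 36.6 and 39.7 CPM and are led by Fzd5, where basal-like control cells sum to 48.5 CPM and are led by Fzd6.

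The 1-day matrices also hold antibody hashtags, of which 3 were in use in each library. The labels do not say whether a hashtag marks an animal, so its cells are subsets of 1 library and not replicates. A hashtag could be assigned to 61.0% of control and 37.0% of experimental cells. Fzd6 in keratinocytes was at 18.4, 21.7 and 22.3 CPM over the 3 control subsets and at 12.6, 12.6 and 15.4 CPM over the 3 experimental ones, so the 2 libraries did not overlap. Fzd8 did not overlap either, in the other direction, at 2.74 to 3.27 and 3.48 to 3.64 CPM. Over all 1-day keratinocytes, assigned or not, Fzd8 was instead at 3.65 and 3.32 CPM (-0.13, -0.37 to 0.10). The other members with at least 50 UMIs overlapped, so 1 of 8 was lower and 1 of 8 higher without overlap, against 18.3% and 17.6% of 12368 genes, close to that background. Of bulge-like cells the 3 hashtags held 263, 152 and 153 of 3951 in the control and 117, 87 and 87 of 2298 in the experimental library. In these cells Fzd2 was at 79.9, 81.3 and 84.3 CPM in control and 53.0, 53.1 and 57.9 CPM in experimental subsets, from as few as 45 and 19 UMIs, the 1 member of 6 that was lower without overlap, against 6.21% of 6587 genes. Both sets of levels are below the 126 and 90.5 CPM of all bulge-like cells, and the reason was not tested.

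**Figure D5:**
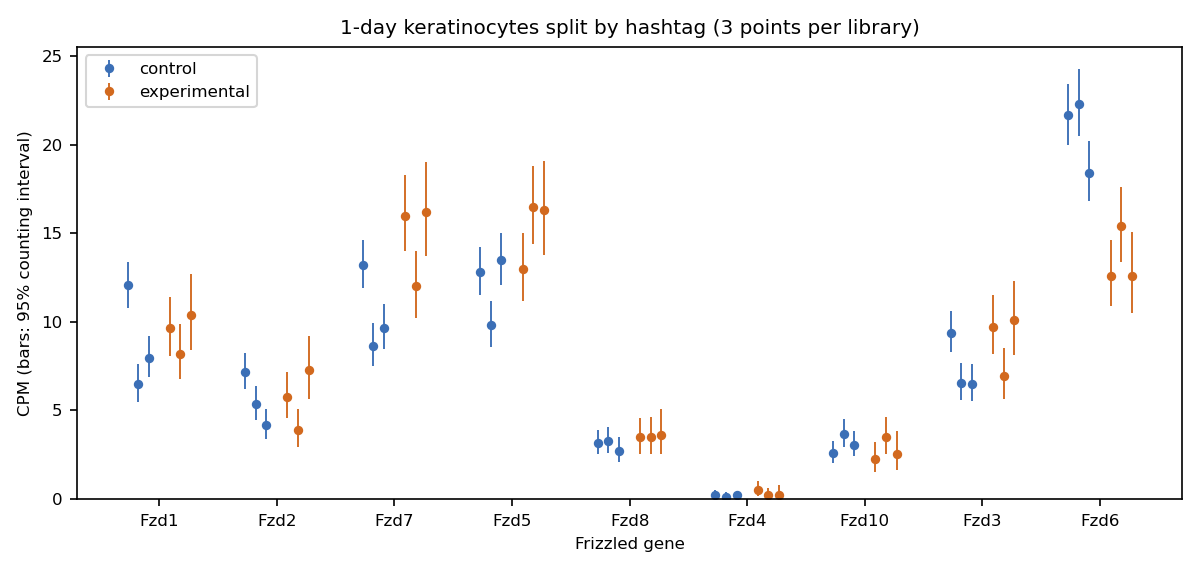
CPM of each Frizzled gene in 1-day keratinocytes split by hashtag, with 3 points for the control and 3 for the experimental library and bars for the 95% counting interval. Fzd6 lies at 18.4 to 22.3 CPM in control and 12.6 to 15.4 CPM in experimental subsets, while most other members overlap.

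In the dermal and vascular cells that came with the epidermis, Fzd1 of fibroblast-like cells had the largest difference among members with at least 50 UMIs. At 1 day it was at 188 CPM in 469 control and 49.6 CPM in 278 experimental cells, a log2 ratio of -1.92 (-2.41 to -1.46), the 1 of 2 members with enough UMIs that was 2-fold lower, against 11.6% of genes. At 1 week it was at 53.5 CPM in 178 and 91.0 CPM in 103 cells, a ratio of 0.77 (0.09 to 1.44). The 2 directions were opposite, but the cells of the 2 classes differed. The 1-day class was led by Tnfaip6, Serpine2 and Col3a1, with Crabp1 among its leading genes, and finer clustering set apart a Tnfaip6-led cluster of 418 control and 200 experimental cells from 51 and 79 fibroblast-like cells, while the 1-week class was led by Dcn, Col1a1 and Col1a2. The 1-week Slc26a7-led cluster, with Crabp1, Serpine2 and Tnfaip6 among its leading genes, had Fzd1 at 94.4 and 88.4 CPM (-0.09, -0.92 to 0.70). In the 1-day fibroblast-like cells the median depth was 1131 and 2928 UMIs. Deposited barcodes began at 500 UMIs in the 1-day control library and at 1368 in the experimental one. The control median of this class thus lay below the lowest experimental barcode, and its ratio at an equal lowest UMI count was not computed. Krt8, which is not a fibroblast gene, was at 0 and 442 CPM. The summed fibroblast markers were at 3268 and 2430 CPM, with 8 of 9 at or above 10 CPM and 0 of 9 at 0 in each library. The part of these differences in the Fzd1 ratio was not tested. Fzd4 in 1-week endothelial-like cells was at 36.1 and 52.1 CPM from 17 and 26 UMIs, and in the Selp-led cluster at 55.0 and 61.8 CPM, with intervals that overlapped. Fzd6 in the endothelial-like class was at 57.3 and 28.0 CPM from 27 and 14 UMIs (-1.03, -2.08 to -0.05), while Selp-led cells numbered 56 and 98 and Ccl21a-led cells 54 and 32. Fzd3 in Schwann-like cells was at 96.4 and 97.5 CPM. Fzd5 in T cell-like cells was at 30.4 and 15.4 CPM at 1 day (-0.99, -1.81 to -0.20) and at 27.3 and 37.8 CPM at 1 week. In the 1-day T cell-like cells the summed T cell markers were at 7382 and 2079 CPM and Krt8 at 0 and 455 CPM. Their median depth was 1242 and 2794 UMIs, so the control median again lay below the lowest experimental barcode. The part of these differences was not tested.

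The other genes of the pathway in keratinocytes were read from lists of Wnt ligands, co-receptors, receptor turnover, secreted binders, planar polarity, intracellular signalling and feedback targets. Of 11 Wnt ligands with at least 50 UMIs at 1 day, 0 were 2-fold higher and 4 were 2-fold lower in the experimental library, against 5.21% and 2.52% of all genes: Wnt10b (1.14 and 0.338 CPM, -1.76, the lowest), Wnt5a (-1.41), Wnt6 (-1.11) and Wnt10a (40.3 and 19.2 CPM, -1.07), the last 3 named after their values were seen. The highest was Wnt9a at 0.279 and 0.459 CPM (0.72). At 1 week 2 of 12 were 2-fold higher, Wnt7a (0.344 and 1.15 CPM, 1.75, the highest) and Wnt11 (1.65), against 10.6% of all genes, and 6 were 2-fold lower, against 4.76%, with Wnt10b lowest (4.63 and 0.990 CPM, -2.22). Over all keratinocytes the medians of the ligand list, -0.33 and -0.76, were below those of the Frizzled genes, -0.06 and 0.39, at both times. This order was not kept within classes. Bulge-like cells had ligand medians of -0.18 (1 day, 7 ligands) and 0.37 (1 week, 6 ligands), beside Frizzled medians of -0.05 and 0.05. For upper hair follicle-like cells the ligand medians were 0.14 (1 day, 5 ligands) and 0.85 (1 week, 3 ligands), beside -0.02 and 0.41. Only the 1-day bulge-like cells thus had the lower ligand median.

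The counts in keratinocytes that follow stand against the shares of all genes that passed, which at 1 day were 5.21% upward and 2.52% downward. At 1 week these shares were 10.6% and 4.76%. None of 6 co-receptors passed 2-fold at either time, with Lrp5 highest (0.22) and Ror1 lowest (-0.52) at 1 day and Ror2 highest (0.45) and Lrp6 lowest (0.07) at 1 week. Among 6 genes of receptor turnover, the Znrf3, Rnf43 and R-spondin system that removes Frizzled proteins from the membrane or spares them, 0 passed at 1 day, when Lgr4 was highest (0.12) and Lgr6 lowest (-0.67). At 1 week 1 passed, Rspo3 at 7.53 and 0.132 CPM (4 experimental UMIs, -5.83), and Lgr5 was highest at 33.7 and 57.6 CPM (0.77). Of the secreted binders, which hold Wnt or Frizzled proteins outside the cell, 0 of 2 passed at 1 day (Sfrp1 0.20, Wif1 -0.33) and 2 of 3 were 2-fold higher at 1 week, Sfrp2 at 0.409 and 1.39 CPM (1.76) and Wif1 at 4.00 and 11.7 CPM (1.55), with Sfrp1 lowest (0.51).

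Of 7 planar polarity genes, 1 was 2-fold lower at 1 day, against 2.52% of all genes, Ankrd6 (1.06 and 0.284 CPM, -1.90), and 2 at 1 week, against 4.76%, Prickle1 (3.14 and 0.825 CPM, -1.93) and Ankrd6 (-1.21). Prickle2 was highest at both times (0.21 and 0.77). None of 8 Dishevelled and β-catenin genes passed 2-fold at either time, and their medians were -0.05 and -0.02. Csnk1a1 was highest (0.35) and Axin1 lowest (-0.36) at 1 day, and Ctnnb1, the β-catenin gene, was highest (0.17) and Dvl1 lowest (-0.17) at 1 week. Of 6 feedback targets 0 passed at 1 day, with Nkd2 highest (0.77) and Apcdd1 lowest (-0.85), and at 1 week 1 was 2-fold lower, Nkd2 (2.80 and 1.09 CPM, -1.36), with Lef1 highest (0.81). The part of class makeup in the ratios of these lists was not tested.

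In bulge-like cells Lgr5, the stem cell marker whose level followed Fzd2 over classes, was at 163 and 147 CPM (-0.15) in the 1-day pair and at 337 and 345 CPM (0.03) in the 1-week pair, beside -0.48 and -0.49 for Fzd2. Wnt5b was the highest-ratio ligand there at 1 day, at 3.72 and 11.6 CPM (1.64, 1.07 to 2.22), and Wnt10a the lowest (34.2 and 22.4 CPM, -0.61). At 1 week Wnt11 was highest (3.01 and 8.72 CPM, 1.53) and Wnt4 lowest (93.8 and 68.3 CPM, -0.46). All 5 feedback targets with enough UMIs had 1-day ratios below 0 in bulge-like cells, between -0.59 for Lef1 and -0.22 for Tcf7, with a median of -0.35 beside 0.02 over all 10281 genes tested. Of these 5, 0 were past 2-fold, against 2.32% of genes. At 1 week they were on both sides of 0, between -0.74 for Nkd1 and 0.48 for Apcdd1.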

How the data were processed

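A matrix of UMI counts was deposited for each library, and per the file headers Cell Ranger 5.0.1 made it. Seurat and the mouse build mm10 are named in the submitters' processing notes. Of 32285 gene identifiers, 32158 were found in GENCODE M21 (GRCm38), which gave the coordinates. Barcodes under 500 UMIs or 300 genes, or with over 15% of UMIs from mitochondrial genes, were left out, and the highest-scoring doublets were removed at 0.8% per 1000 barcodes (14.7 to 26.8% of a library). The deposited barcodes began at 500 UMIs in both control libraries. They began at 1368 UMIs in the 1-day and 1059 UMIs in the 1-week experimental library. Time points were clustered separately in scanpy 1.11.5 (2000 variable genes, 30 components, 15 neighbours, Leiden resolution 1), without the Wnt and Frizzled genes, and clusters were named from marker lists. Barcodes near the free-RNA profile (under 3000 UMIs) were set aside at 1 week only. The limits for this and for naming clusters were set after the data were seen. UMIs were summed per class and library and given as CPM with exact Poisson 95% intervals and log2 ratios with exact conditional intervals (scipy 1.17.1), and these cover counting error only. The interval code was checked on simulated data. With 1 library per group there was no test: a gene was called when it had at least 50 UMIs over both libraries and differed by at least 2-fold. TMM factors came from edgeR 4.0.16. Promoter windows are RefSeq's (GRCm38.p6).

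All 9 members were named, with those that the results turn on in each class and the others by count or range, or not named there. From the other lists the genes with the highest and the lowest ratio in keratinocytes were named, and for each member but Fzd4, which had too few UMIs, the 3 genes most like it. The members were taken as a family by name and not by their values, but they, the lists and the comparisons were chosen with earlier results of these data known. Alternatives covered scaling, cell filters, doublets, free RNA, weighting of cells and cluster choice. The trypsin step ran at 4 or 37 °C, and which library had which is not given in the sources used here. Aligner settings and use of strand are likewise not given in the sources used here.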

Additional observations from a re-analysis of the deposited data

Results flagged for a closer look

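Some ratios had opposite signs at the 2 time points, which have different kits and their own control libraries, and the difference between the time points was not tested. All cells passing filters at 1 week include the 11514 control and 11294 experimental barcodes that were taken as free RNA. In all cells passing filters the log2 ratio of experimental over control was -0.38 at 1 day and 0.57 at 1 week for Fzd1, -0.57 and 0.20 for Fzd2, and -0.21 and 0.27 for the sum of the 9 genes. In keratinocytes it was -0.14 and 0.86 for Fzd1, -0.45 and 0.39 for Fzd2, and -0.10 and 0.49 for the sum. In bulge-like cells, by contrast, Fzd2 had -0.48 and -0.49. In fibroblast-like cells Fzd1 had -1.92 and 0.77, and the sum -1.0 and 0.49, but that class was led by Tnfaip6, Serpine2 and Col3a1 at 1 day and by Dcn and Col1a1 at 1 week. The 1-week Slc26a7-led cluster, which shares leading genes with the 1-day class, had -0.09 for Fzd1 and -0.31 for the sum.

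The 1-day matrices hold hashtag counts that the labels do not describe. Hashtags 1, 2 and 3 had medians of 83.0, 110 and 105 UMIs per cell in the control library and 68.0, 137 and 70.0 in the experimental one, while the fourth had a median of 0 in both.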

How the results depend on the processing

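No paired analysis was possible because each group is 1 library, and for the same reason no library could be left out. In bulge-like cells 62 of 63 alternative values at 1 day and 61 of 63 at 1 week moved by less than their counting interval, and Fzd2 there ranged from -0.51 to -0.43 at 1 day and from -0.57 to -0.33 at 1 week. The keratinocyte totals were less stable, and the cause was not tested.

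The 1-day sum in keratinocytes (-0.10) was -0.19 without mitochondrial and ribosomal genes in the total, -0.05 for barcodes of at least 3000 UMIs, -0.30 as a mean over cells, 0.02 with 10% free RNA subtracted and -0.24 with Krt8-led clusters counted. Of the alternatives chosen after seeing the data, it was 0.00 without bulge-like cells and 0.31 over classes with at least 25 cells in both libraries. The 1-week sum (0.49) was, in the same order, 0.41, 0.54 and 0.59, then 0.29 with Krt8-led clusters, 0.37 with TMM factors, 0.39 at Leiden resolution 2 and -0.22 over shared classes. In all cells the 1-day sum (-0.21) was -0.17 with TMM factors, -0.31 without mitochondrial and ribosomal genes, -0.14 with doublets kept, -0.17 at an equal lowest UMI count, -0.13 for deep barcodes, -0.48 as a mean over cells and -0.11 with free RNA subtracted. The 1-week sum in all cells (0.27) also counts the barcodes taken as free RNA. It was 0.18 with TMM factors, 0.19 without mitochondrial and ribosomal genes, 0.36 for deep barcodes and 0.17 as a mean over cells.

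The count of members past 2-fold at 1 day (0) was 1 with free RNA subtracted (Fzd4, with few UMIs). At 1 week (1, Fzd7) it was 0 with TMM factors, as a mean over cells, with Krt8-led clusters, at resolution 2 and over shared classes, 2 for deep barcodes (Fzd1 and Fzd7) and 3 without bulge-like cells (Fzd1, Fzd2 and Fzd7).

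Single members changed sign in keratinocytes as follows. At 1 day Fzd1 was 0.44 with free RNA subtracted and 0.39 over shared classes, Fzd2 was 0.26 without bulge-like cells and 0.15 over shared classes, Fzd3 was -0.14 as a mean over cells and -0.08 with Krt8-led clusters, Fzd7 was -0.03 as a mean over cells, and Fzd8 was 0.06 with free RNA subtracted and 0.19 over shared classes. At 1 week, over shared classes, Fzd1 was -0.02, Fzd2 -0.66, Fzd3 -0.10, Fzd4 -0.34, Fzd5 -0.01 and Fzd10 0.29. Fzd4 was also -0.12 without bulge-like cells, and Fzd8 was 0.21 as a mean over cells and 0.12 with free RNA subtracted. TMM factors differed by 0.11 on the log2 scale between the 1-week keratinocyte sums. Depth limits the stromal classes, where most members had under 50 UMIs.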
